A study of Mus musculus with 10 samples.

Results

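The comparison described here sets retinas injected with the inhibitor ISOX DUAL against uninjected retinas in mice with oxygen-induced retinopathy (OIR), with 2 arrays in each group, 4 of the 10 arrays in the series. The arrays were chosen by their titles, and every gene with a transcript cluster of its own was examined, 23255 in all after a filter on low signal, with the lens crystallin genes described apart. All mice were C57BL/6JJmsSlc and the 4 arrays hold RNA from whole retina at postnatal day 17. ISOX DUAL retinas had OIR (75% oxygen from day 7, for 5 days, then air) and an injection of the inhibitor into the vitreous when the oxygen ended. Uninjected OIR retinas had the same oxygen exposure and no injection. Of the other groups of the series, with 2 arrays each, OIR retinas injected with phosphate-buffered saline (PBS) and untreated day 17 retinas appear below beside the results, and untreated day 7 retinas enter the estimate of the spread. The labels used here give neither the dose nor the vehicle of the inhibitor, and do not say whether arrays came from separate mice or from pools. All p-values therefore reflect array-to-array spread alone, which may be technical. The groups compared differ in the inhibitor and also in the injection itself, which cannot be told apart between these 4 arrays. Any difference in litter, handling or batch between injected and other arrays could not be told apart from the injection either. PBS values are set beside many of the results.

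In OIR, high oxygen stops and prunes the growing vessels of the inner retina, and on return to air the poorly perfused tissue is short of oxygen. Hypoxia-inducible factor then accumulates and raises growth factors such as Vegfa, and endothelial tip cells lead new sprouts, some of which grow out of the retina as tufts. Angiopoietin-2, the product of Angpt2, is made largely by endothelial cells that are sprouting or remodelling. It binds the receptor Tie2 (gene Tek) and, in many settings, opposes angiopoietin-1, which keeps vessels stable. ISOX DUAL is known as an inhibitor of bromodomains, the protein modules that read acetylated lysine, of the coactivators CBP and p300 and of the BET family. By its design text, the series sought genes raised in OIR whose level reverted under the inhibitor.

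The arrays held retina by their markers. On the ISOX DUAL arrays the rod genes Sag and Gnat1 lay between 12.01 and 13.08 log2, against 11.72 to 13.22 in uninjected OIR, and the cone, bipolar, Müller glia, ganglion cell, endothelial and pericyte markers all lay above the median signal of the negative control probes, which was 5.83 to 6.11 on the 10 arrays. Of the microglia markers, Cx3cr1 lay above it and P2ry12 and Aif1 below it in both groups. Signal differed between arrays in ways that bear on the results. All 9 lens markers were higher on both ISOX DUAL arrays than on both uninjected OIR arrays, a pattern shown by 25.7% of all genes. Their means were 6.39 and 8.21 against 5.68 and 5.83. Of these lens markers, Cryba1, Crybb2, Crygs, Lim2, Bfsp1 and Bfsp2 lay below the negative control medians in uninjected OIR. Lim2 also did so with ISOX DUAL, so the sizes are not exact. The 3 pigment epithelium markers had means of 6.81 and 7.71 with ISOX DUAL against 8.16 and 6.80 in uninjected OIR, so the first uninjected array was the high one. Small nucleolar RNA signal, a mean over 68 genes that often varies with RNA handling, was 8.58 and 8.46 with ISOX DUAL against 7.82 and 8.39 in uninjected OIR. It was 9.20 and 8.50 with PBS and 7.36 and 8.33 in untreated day 17 retina. All injected arrays thus lay above all other day 17 arrays in this measure. The part of these differences in the results was not tested. All 8 day 17 arrays carried Y-linked transcripts (7.73 to 8.72 log2) with Xist at 4.39 to 4.63. The day 7 arrays had Xist at 11.83 and 11.62, with the Y-linked genes at 3.67 to 4.74. The number of arrays limits precision: a difference between 2 groups had a median standard error of 0.134 log2 and a median half-width of 0.312 log2 for its 95% interval.

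Angpt2 fell with ISOX DUAL and was the 1 gene of 23255 (0.00430%) to pass the threshold of 0.05 for limma's adjusted p. Its signal was 6.54 and 6.39 log2 with ISOX DUAL, against 8.22 and 8.07 in uninjected OIR. It was 6.88 and 6.60 with PBS and 6.22 and 6.33 in untreated day 17 retina. The ISOX DUAL arrays lay just above untreated retina and far below both uninjected OIR arrays, and the PBS arrays lay a little higher. The difference was -1.68 ± 0.13 (standard error, n = 2 arrays per group; adjusted p = 0.0339), a 3.2-fold lower level. With PBS the difference from the same uninjected arrays was -1.41 ± 0.13, and ISOX DUAL differed from PBS by -0.27 ± 0.13 (95% interval -0.57 to 0.025). The call needed every array: it was lost when any 1 of the 10 arrays was left out (adjusted p 0.055 to 0.786, differences -1.75 to -1.60) and when only the 4 arrays entered the fit (adjusted p = 0.361). In whole retina, fewer cells of a type and less RNA per cell cannot be told apart, here and in what follows.

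The rest of the angiopoietin and Tie family did not pass. Tek, which encodes the receptor Tie2, had 6.40 and 6.28 with ISOX DUAL against 5.99 and 5.84 in uninjected OIR, without overlap (difference 0.43 ± 0.12, adjusted p = 0.84), and 6.31 and 6.38 with PBS. Tie1, the co-receptor, had 6.44 and 6.38 against 6.43 and 6.39, and Angpt1 had 4.19 and 4.09 against 4.17 and 4.09, below the negative control medians on all 4 arrays. In this family, then, the ligand gene Angpt2 was low on the injected arrays while the values of Tie1 overlapped between the groups and those of Tek ran the other way.

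Beyond Angpt2, 37 genes had a difference below -1 log2 and 18 above 1, of which 10 were crystallins, and no further gene passed the threshold. At an unadjusted p under 0.05 there were 998 genes (4.29%), 629 lower (2.70%) and 369 higher (1.59%). The next 11 genes by p, lower with ISOX DUAL and without overlap between the groups, had adjusted p of 0.176 to 0.215. They were Spidr, Dusp16, Nox4, Kit, Xlr3a, Esm1, Ccn1, Trp53i11, Adamts9, Apln and Rhoj.

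Spidr, a scaffold protein of DNA repair, had the second smallest p. Its signal was 6.46 and 6.46 with ISOX DUAL and 6.48 and 6.20 with PBS, against 7.72 and 7.52 in uninjected OIR (ISOX DUAL difference -1.16 ± 0.12), and 6.11 and 5.96 in untreated retina. Dusp16, a phosphatase that switches off MAP kinases, had 7.28 and 7.28 with ISOX DUAL and 7.39 and 7.23 with PBS, against 7.94 and 8.06 in uninjected OIR (difference -0.72 ± 0.091). The 4 injected arrays of Dusp16 lay close to the untreated level of 7.25 and 7.24. Kit, the receptor for stem cell factor, had 6.53 and 6.41 with ISOX DUAL and 6.53 and 6.55 with PBS, against 7.19 and 7.28 in uninjected OIR (difference -0.76 ± 0.10), with 6.42 and 6.29 in untreated retina. Rhoj, an endothelial small GTPase that regulates vessel sprouting, had 6.95 and 6.83 with ISOX DUAL and 7.04 and 7.00 with PBS, against 7.90 and 7.64 in uninjected OIR (difference -0.88 ± 0.13). For each of these genes the uninjected OIR arrays stood apart from all 6 other day 17 arrays, and the PBS arrays were as low as, or close to, the ISOX DUAL arrays.

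Several genes of this group were dim. Nox4, an NADPH oxidase that makes hydrogen peroxide, had 4.66 and 4.68 with ISOX DUAL against 5.76 and 5.57 in uninjected OIR (difference -0.99 ± 0.13), with all 4 arrays below the negative control medians, so no fold is given. Adamts9, a secreted metalloprotease, had 5.70 and 5.64 against 6.22 and 6.26 (difference -0.57 ± 0.081), with the ISOX DUAL arrays below those medians. The sizes of such differences are not exact. The same holds for Calcrl, Ptgs2, Ccl2, Slc7a11, Slc18a3, Ccnb2, Tpx2, F3, Bfsp1 and Lgsn, given further on. For each of them both arrays of at least 1 group lay below those medians.

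**Figure D1:**
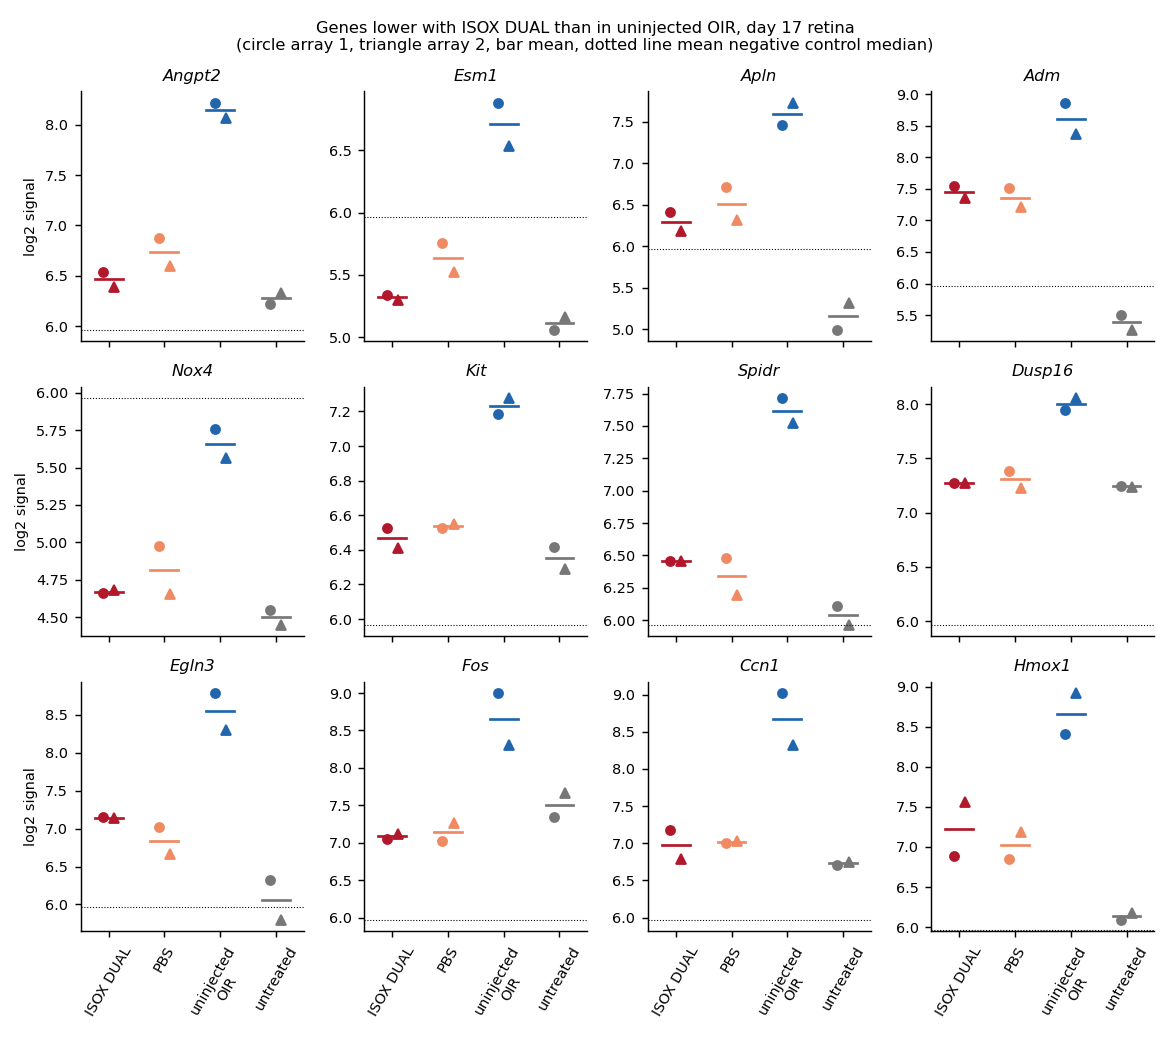
Log2 signal (vertical axes, each gene on its own scale) of 12 genes on each day 17 array, by group: ISOX DUAL, PBS, uninjected OIR and untreated, with circles for array 1, triangles for array 2, bars for means and a dotted line for the mean of the negative control medians. In every panel both uninjected OIR arrays lie above both ISOX DUAL arrays and both PBS arrays, and Angpt2, at 6.54 and 6.39 with ISOX DUAL against 8.22 and 8.07, is the 1 gene past the threshold.

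Endothelial tip cell genes had lower values with ISOX DUAL as a group. Of 22 tested, all 22 had a negative difference, with a median of -0.51 log2 against 0.024 over all genes tested, and 21 had both ISOX DUAL arrays below both uninjected OIR arrays, a pattern shown by 15.4% of all genes (the opposite one by 25.7%). Angpt2 was the 1 member to pass. The median with PBS against the same uninjected arrays was -0.41, and ISOX DUAL minus PBS had a median of -0.12. Without the second ISOX DUAL array, where lens signal was highest, 21 of 22 genes still lay below both uninjected arrays, with 23.5% of all genes doing so.

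Esm1, a proteoglycan secreted by tip cells, had 5.34 and 5.30 with ISOX DUAL and 5.75 and 5.52 with PBS, against 6.88 and 6.53 in uninjected OIR (ISOX DUAL difference -1.39 ± 0.19, adjusted p = 0.215). All injected arrays of Esm1 lay below the negative control medians, so the size is not exact. Apln, the ligand of the apelin receptor on endothelial cells, had 6.41 and 6.18 with ISOX DUAL and 6.72 and 6.31 with PBS, against 7.46 and 7.73 in uninjected OIR (difference -1.30 ± 0.19, adjusted p = 0.215). Apln on the injected arrays remained above the untreated level of 5.00 and 5.31, which lay below those medians. Trp53i11, a p53-inducible gene counted among the tip cell genes, had 7.63 and 7.41 against 8.59 and 8.38 (difference -0.96 ± 0.13). Nid2, a basement membrane linker protein, had 6.49 and 6.40 against 6.94 and 6.93 (difference -0.49 ± 0.082, adjusted p = 0.296) and 6.69 and 6.62 with PBS, so its ISOX DUAL arrays lay below both PBS arrays as well.

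Promoters of genes that respond to hypoxia were examined for the binding core of the factor. The 250 bases before the start of 4 of these genes, from RefSeq on GRCm38.p6 and written along each gene's strand, are shown because hypoxia-inducible factor binds the core ACGTG or GCGTG. Capitals mark that core on either strand.
Esm1, chr13:113209409-113209658, plus strand: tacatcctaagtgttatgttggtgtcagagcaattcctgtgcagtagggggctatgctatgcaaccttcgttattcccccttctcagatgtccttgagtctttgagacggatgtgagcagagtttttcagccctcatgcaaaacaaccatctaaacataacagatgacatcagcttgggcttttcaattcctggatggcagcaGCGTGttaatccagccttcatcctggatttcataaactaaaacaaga
Apln, chrX:48034854-48035103, minus strand: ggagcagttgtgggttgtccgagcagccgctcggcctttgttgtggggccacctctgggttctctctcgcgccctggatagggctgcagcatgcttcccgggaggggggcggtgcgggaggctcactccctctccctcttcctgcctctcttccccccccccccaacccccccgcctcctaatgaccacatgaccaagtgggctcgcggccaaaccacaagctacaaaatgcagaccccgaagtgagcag
Adm, chr7:110627407-110627656, plus strand: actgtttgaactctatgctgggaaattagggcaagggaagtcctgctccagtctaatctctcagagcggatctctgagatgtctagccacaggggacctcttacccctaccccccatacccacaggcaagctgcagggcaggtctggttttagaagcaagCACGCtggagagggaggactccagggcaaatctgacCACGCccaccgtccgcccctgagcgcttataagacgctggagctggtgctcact
Egln3, chr12:54203875-54204124, minus strand: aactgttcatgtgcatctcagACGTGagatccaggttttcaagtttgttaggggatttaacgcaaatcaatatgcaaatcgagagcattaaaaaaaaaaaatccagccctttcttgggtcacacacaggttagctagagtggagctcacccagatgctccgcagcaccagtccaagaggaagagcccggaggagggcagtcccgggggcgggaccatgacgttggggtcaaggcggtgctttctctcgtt
Esm1 and Egln3 held 1 match each, Adm 2 and Apln 0 in these windows. The core is short and common: 12679 of 32851 promoters of this length held it (38.6%), against 36 of 44 promoters of the hypoxia target list (81.8%, from 29 of its 35 tested genes) and 14 of 19 of the tip cell list (73.7%, from 18 of 22 genes). The hypoxia targets are in part known through such sites, so the share describes the list. A match is not a bound site, and no match says only that these letters are not in the window.

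Targets of hypoxia-inducible factor had lower values with ISOX DUAL, with PBS slightly further from uninjected OIR. Of 35 tested, 22 lay lower without overlap and 1 higher (15.4% and 25.7% of all genes), none passed the threshold, and the median was -0.28 log2 with ISOX DUAL and -0.39 with PBS. Adm, the vasoactive peptide adrenomedullin, had 7.55 and 7.35 with ISOX DUAL and 7.51 and 7.21 with PBS, against 8.87 and 8.36 in uninjected OIR (difference -1.17 ± 0.19, adjusted p = 0.268) and 5.50 and 5.27 in untreated retina. Egln3 and Egln1 are the prolyl hydroxylases that mark the factor for destruction and are themselves its targets. Egln3 had 7.16 and 7.13 with ISOX DUAL and 7.02 and 6.66 with PBS, against 8.78 and 8.31 in uninjected OIR (difference -1.40 ± 0.23). Egln1 had 9.33 and 9.19 with ISOX DUAL and 9.10 and 9.11 with PBS, against 9.92 and 9.77 in uninjected OIR (difference -0.59 ± 0.095). For both hydroxylases the 2 PBS arrays were the lowest of the OIR arrays, below both ISOX DUAL arrays.

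Vegfa, the main growth factor of the response, had a small difference. It had 9.77 and 9.60 with ISOX DUAL and 9.84 and 9.64 with PBS, against 9.94 and 9.91 in uninjected OIR and 8.81 and 8.88 in untreated retina. Its difference was -0.24 ± 0.12 (95% interval -0.52 to 0.033), so most of its distance from untreated retina, 1.08 ± 0.12 in uninjected OIR, was still present on the injected arrays. Epo, the hypoxia-induced hormone erythropoietin, had 6.36 and 6.17 against 6.82 and 6.27, with overlap. Glycolysis genes, many of which the same factor drives, had a median of -0.27 over 20 genes, and -0.27 with PBS. With ISOX DUAL, 11 were lower and 2 higher without overlap (15.4% and 25.7% of all genes). Hk2, which phosphorylates glucose, had 8.50 and 8.18 against 8.81 and 9.02, Pgk1 had 11.18 and 11.08 against 11.85 and 11.45, and Pfkp, a phosphofructokinase, had 10.78 and 10.53 against 11.09 and 11.10. Nuclear genes of the respiratory chain were nearer the median of all genes, at 0.14 over 22 genes, 0 lower and 9 higher without overlap, led by Ndufs3 (0.22), Cox7a2 (0.37) and Ndufv1 (0.22). That median rested on single arrays, at 0.034 without the second ISOX DUAL array, 0.21 without the first ISOX DUAL array, 0.24 without the first uninjected OIR array and 0.042 without the second uninjected OIR array.

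Genes of the vessel wall were lower in part. Of 24 genes that mark endothelium in general, 12 were lower and 5 higher without overlap (median -0.13, and -0.11 with PBS). Eng, the TGF-beta co-receptor endoglin, had 7.30 and 7.10 with ISOX DUAL against 8.17 and 7.97 in uninjected OIR (difference -0.87 ± 0.16, adjusted p = 0.394). Robo4, an endothelial guidance receptor, differed by -0.53 ± 0.10 and Ptprb, the phosphatase that restrains Tie2, by -0.56 ± 0.11. Pecam1, the pan-endothelial adhesion molecule, had 7.14 and 6.98 against 7.48 and 7.23, and Cldn5, a tight junction gene of the blood-retina barrier, had 7.21 and 7.38 against 6.86 and 7.15, in opposite directions. Pericyte and smooth muscle genes had a median of -0.29 over 16 genes, 13 of them lower and 0 higher without overlap (15.4% and 25.7% of all genes). With PBS the median of this list was -0.25. The ISOX DUAL medians were -0.18 without the first uninjected OIR array for this list and -0.083 without the first uninjected OIR array for the endothelial one. Rgs5, a pericyte marker, had 9.97 and 9.81 against 10.53 and 10.35, and Abcc9, a subunit of a pericyte potassium channel, had 7.15 and 7.04 against 7.63 and 7.76. Acta2, smooth muscle actin, had 7.03 and 6.92 against 9.05 and 7.75, so its difference of -1.42 ± 0.40 rested mostly on the first uninjected array.

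The wider list of angiogenic factors and receptors was mixed, with a median of -0.16 over 30 genes, and -0.19 with PBS. With ISOX DUAL, 15 were lower and 6 higher without overlap (50% and 20%, against 15.4% and 25.7% of all genes). The ISOX DUAL median was -0.10 without the first uninjected OIR array. The lower members included Angpt2, Apln, Adm and Thbs1. Thbs1, a secreted inhibitor of vessel growth, had 7.11 and 7.36 against 8.12 and 8.33 (difference -0.99 ± 0.16). Receptor genes lay on both sides. Flt1 (-0.16) and Pdgfrb (-0.43) were lower without overlap, and Calcrl and Aplnr were higher. Calcrl, which with an accessory protein forms the receptor for adrenomedullin, had 5.89 and 6.10 with ISOX DUAL and 5.86 and 6.08 with PBS, against 5.60 and 5.43 in uninjected OIR (difference 0.48 ± 0.12, adjusted p = 0.656). Aplnr, the apelin receptor, had 7.54 and 7.42 with ISOX DUAL and 7.30 and 7.57 with PBS, against 6.73 and 7.14 in uninjected OIR (difference 0.55 ± 0.18). Apln and Adm thus lay below the uninjected arrays and Aplnr and Calcrl above them, none past the threshold. Aplnr, Flt1 and Pdgfrb were chosen after their values were seen.

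Many genes of the first response to growth factors and stress were low on the injected arrays, and none passed the threshold. Of 24 immediate-early genes, 17 lay lower and 0 higher without overlap (15.4% and 25.7% of all genes), with medians of -0.38 for ISOX DUAL and -0.43 for PBS. Fos, a subunit of AP-1, had 7.05 and 7.12 with ISOX DUAL and 7.03 and 7.26 with PBS, against 9.00 and 8.31 in uninjected OIR (difference -1.57 ± 0.23, adjusted p = 0.215) and 7.35 and 7.66 in untreated retina. Nr4a1, a nuclear receptor induced by many stimuli, had 8.65 and 8.40 with ISOX DUAL and 8.48 and 8.22 with PBS, against 9.80 and 10.14 in uninjected OIR (difference -1.45 ± 0.27). Both injected groups of Fos lay below untreated retina too. Zfp36, which promotes decay of inflammatory mRNAs, had 5.56 and 5.73 against 6.46 and 6.15 (difference -0.66 ± 0.13), with the ISOX DUAL arrays below the negative control medians.

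Ccn1, a matrix-associated protein of sprouting vessels and glia, had 7.18 and 6.79 with ISOX DUAL and 7.01 and 7.03 with PBS, against 9.02 and 8.32 in uninjected OIR (difference -1.68 ± 0.23, adjusted p = 0.215) and 6.71 and 6.75 in untreated retina. The list of CCN genes and targets of YAP and TEAD that holds it stood at -0.074 over 20 genes, and -0.11 with PBS. With ISOX DUAL, 8 were lower and 3 higher without overlap (15.4% and 25.7% of all genes). Igfbp3, an insulin-like growth factor binding protein, differed by -0.89 ± 0.18. F3, the coagulation initiator tissue factor, had 5.57 and 5.61 against 7.09 and 6.05, a gap set largely by the first uninjected array. Basement membrane and matrix genes had a median of -0.11 over 29 genes, 13 lower and 1 higher without overlap (median with PBS -0.069). The matrix median was -0.0015 without the second uninjected OIR array, and that of the CCN list -0.12 without the second ISOX DUAL array, -0.14 without the first ISOX DUAL array and -0.15 without the first uninjected OIR array. Fn1, fibronectin, had 9.36 and 9.20 with ISOX DUAL and 9.43 and 8.96 with PBS, against 10.23 and 10.24 in uninjected OIR (difference -0.95 ± 0.15, adjusted p = 0.268) and 8.21 and 8.23 in untreated retina. Like Apln and Adm, Fn1 kept part of its distance from untreated retina on the injected arrays.

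**Figure D2:**
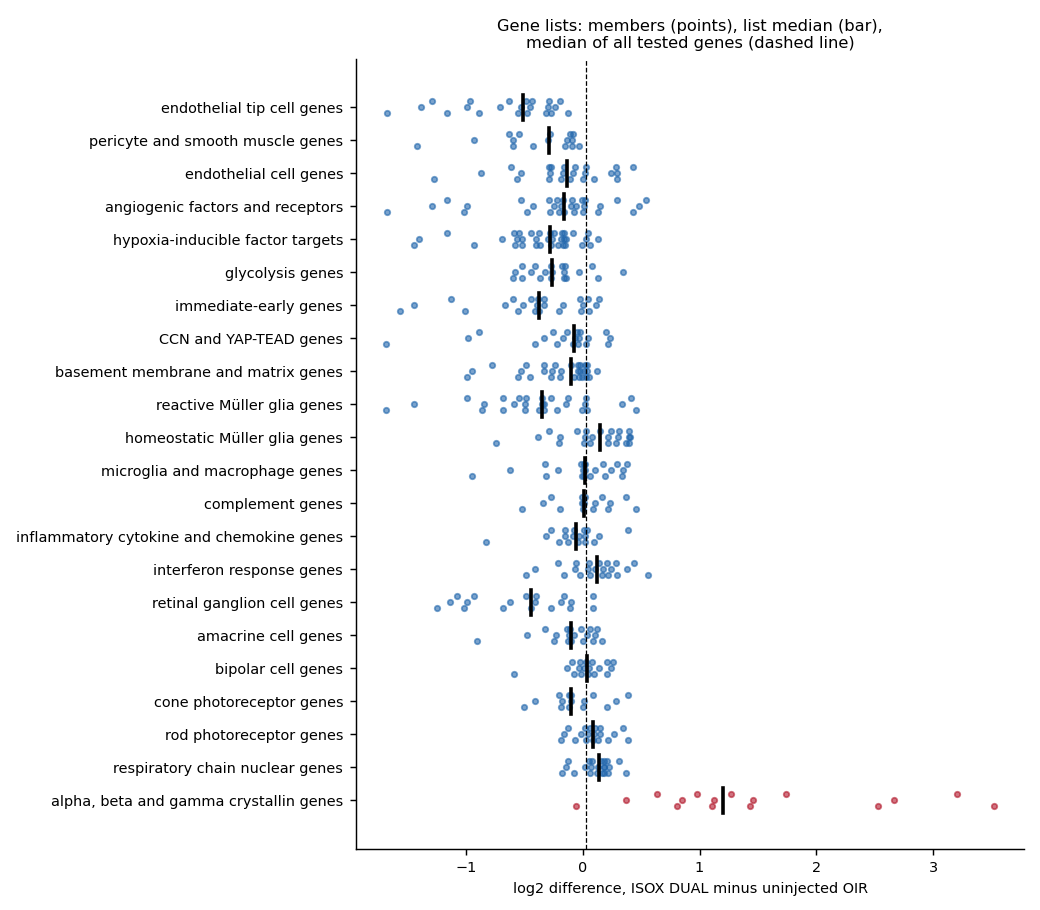
Log2 difference, ISOX DUAL minus uninjected OIR (horizontal axis), of every tested member of 22 gene lists (points, crystallins in red), with the list median as a bar and the median of all 23255 genes, 0.024, as a dashed line. The tip cell list has its median at -0.51 and all 22 members below 0, the ganglion cell list is at -0.45, and the crystallin list is at 1.20.

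Müller glia genes are given as those of the reactive state and those of the resting state. Reactive genes had a median of -0.35 over 28 genes, and the median with PBS was -0.71. With ISOX DUAL, 15 were lower and 2 higher without overlap (15.4% and 25.7% of all genes). The ISOX DUAL median was -0.22 without the first uninjected OIR array. Hmox1, the heme-degrading enzyme induced by oxidative stress, had 6.88 and 7.56 with ISOX DUAL and 6.86 and 7.19 with PBS, against 8.41 and 8.92 in uninjected OIR (difference -1.44 ± 0.26, adjusted p = 0.365). Tnfrsf12a, the receptor of the cytokine TWEAK, had 7.01 and 6.80 against 7.51 and 7.68 (difference -0.68 ± 0.13). Both genes lay without overlap below uninjected OIR.

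Gfap and Serpina3n overlapped between ISOX DUAL and uninjected OIR, while Edn2 lay lower with ISOX DUAL without overlap. Gfap, the intermediate filament of reactive glia, had 8.18 and 8.67 with ISOX DUAL and 7.72 and 8.05 with PBS, against 8.49 and 8.65 in uninjected OIR and 6.15 and 6.20 in untreated retina. Its ISOX DUAL difference was -0.14 ± 0.18 (95% interval -0.55 to 0.27). Serpina3n, a protease inhibitor of reactive glia, had 8.33 and 9.25 with ISOX DUAL and 7.38 and 7.36 with PBS, against 9.61 and 8.67 in uninjected OIR (difference -0.35 ± 0.35, interval -1.15 to 0.46). Edn2, an endothelin made by stressed photoreceptors, had 7.27 and 7.35 with ISOX DUAL and 7.00 and 6.94 with PBS, against 7.61 and 7.43 in uninjected OIR (difference -0.22 ± 0.11). For Gfap and Serpina3n the ISOX DUAL arrays overlapped the uninjected arrays while both PBS arrays lay lower, and for Edn2 the order was PBS, ISOX DUAL, uninjected. None passed the threshold against uninjected OIR or PBS.

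Resting Müller glia genes had a median of 0.15 over 23 genes, 4 lower and 10 higher without overlap (15.4% and 25.7% of all genes). This median moved with single arrays, to 0.039 without the second ISOX DUAL array, 0.25 without the first ISOX DUAL array, 0.31 without the first uninjected OIR array and 0.014 without the second uninjected OIR array. The lowest was Sox9, a glial transcription factor, at 7.79 and 7.52 with ISOX DUAL and 7.66 and 7.68 with PBS, against 8.37 and 8.44 in uninjected OIR (difference -0.75 ± 0.11, adjusted p = 0.215). Higher members were Gpr37, a glial receptor (0.40), and Abca8a, a lipid transporter, with 8.56 and 8.45 against 8.23 and 8.04. Abca8a remained below its untreated level of 9.07 and 8.93 in all OIR groups.

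**Figure D3:**
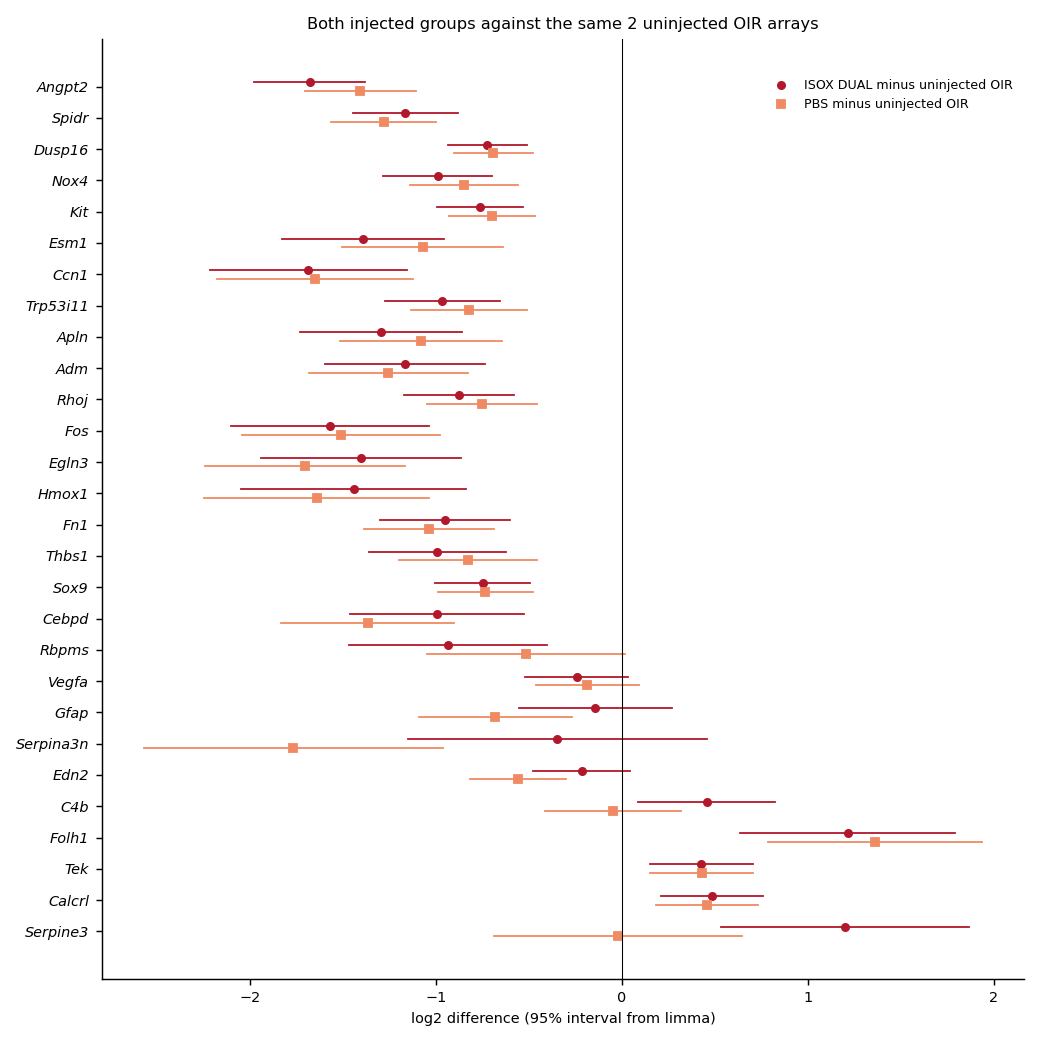
Log2 differences with their 95% intervals from limma (horizontal axis) for 28 genes (vertical axis), ISOX DUAL minus uninjected OIR in dark red circles and PBS minus uninjected OIR in orange squares. Both share the same 2 uninjected arrays, and the pairs lie close for Angpt2 (-1.68 and -1.41) and Fos (-1.57 and -1.51) and apart for Serpina3n (-0.35 and -1.77) and Serpine3 (1.20 and -0.02).

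Immune genes were near the median of all genes. Over all genes, 15.4% were lower and 25.7% higher without overlap. Microglia and macrophage genes had a median of 0.017 over 21 genes, 1 lower and 6 higher without overlap (4.76% and 28.6%). The lower one was Mrc1, the mannose receptor of perivascular macrophages, at 4.72 and 4.74 against 5.97 and 5.39 (difference -0.95 ± 0.19), with the ISOX DUAL arrays below the negative control medians. Higher members were Csf1r, the receptor that sustains microglia, at 6.99 and 6.96 with ISOX DUAL and 6.70 and 6.74 with PBS, against 6.70 and 6.50 in uninjected OIR (difference 0.38 ± 0.12), and the integrin gene Itgam (0.29). Complement genes had a median of 0.012 over 16 genes, 2 lower and 5 higher without overlap (12.5% and 31.2%, near the shares over all genes). C4b, a complement component that reactive glia make, had 7.20 and 7.09 with ISOX DUAL and 6.85 and 6.43 with PBS, against 6.78 and 6.61 in uninjected OIR (difference 0.46 ± 0.16, adjusted p = 0.991). C5ar1 and Cfi, the other members of smallest p, were below the negative control medians on all 4 arrays. Cytokine and chemokine genes had a median of -0.057 over 18 genes, 5 lower and 3 higher without overlap, led by the prostaglandin enzyme gene Ptgs2 (-0.83), which rested on the first uninjected array (4.86 and 4.89 against 6.14 and 5.27), then Tgfb1 (-0.21) and the chemokine gene Ccl2 (-0.32). Interferon response genes had a median of 0.12 over 22 genes, 4 lower and 6 higher without overlap. Among these Eif2ak2, the kinase that senses double-stranded RNA, had 6.54 and 6.70 with ISOX DUAL and 6.86 and 6.58 with PBS, against 6.27 and 6.09 in uninjected OIR (difference 0.44 ± 0.13), and Irf7 differed by -0.49. These medians moved with single arrays: without the first uninjected OIR array they were 0.22 for microglia, 0.17 for complement and 0.0093 for cytokine genes, and without the second they were -0.062, -0.049 and -0.11, with interferon genes at 0.0091.

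Stress and metabolic lists had no member past the threshold, and their medians depended on single arrays. Over all genes, 15.4% were lower and 25.7% higher without overlap. Genes of the unfolded protein and integrated stress responses had a median of -0.15 over 26 genes, 11 lower and 2 higher without overlap, led by the transcription factor gene Atf3 with 6.66 and 6.64 against 7.18 and 7.31. Slc7a11, the cystine transporter of glutathione synthesis, differed by -0.54 and Calr, a calcium-binding chaperone, by -0.34. Oxidative stress genes, led by Nox4 and Hmox1, had a median of -0.21 over 21 genes, 9 lower and 1 higher without overlap. Cholesterol synthesis genes had a median of -0.16 over 18 genes, 10 lower and 1 higher without overlap, with Pmvk at -0.33, Fdft1 at -0.40 and Sqle at -0.27. Cell cycle genes had a median of -0.091 over 25 genes, 13 lower and 4 higher without overlap, with Ccnb2 at -0.36, Tpx2 at -0.30 and Mcm4 at -0.14. The unfolded protein median was -0.092 without the first uninjected OIR array and -0.37 without the second uninjected OIR array. The oxidative stress median was 0.008 without the first uninjected OIR array and -0.35 without the second uninjected OIR array. The cholesterol median was -0.095 without the second ISOX DUAL array, and the cell cycle median -0.024 without the first uninjected OIR array. With PBS the medians were -0.23 for unfolded protein, -0.23 for oxidative stress, -0.12 for cholesterol and -0.11 for cell cycle genes.

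Retinal ganglion cell genes were lower with ISOX DUAL as a group. These neurons send the axons of the optic nerve and lie in the innermost layer, next to the vitreous. Of 19 tested genes, 14 lay lower and 1 higher without overlap (15.4% and 25.7% of all genes), with a median of -0.45 log2, and none passed the threshold. The mean over the list was 7.47 and 7.17 on the ISOX DUAL arrays and 7.29 and 7.84 on the PBS arrays, against 7.96 and 7.75 in uninjected OIR, with 8.05 and 8.11 in untreated retina. Both ISOX DUAL arrays and the first PBS array were low, and the second PBS array lay within the range of uninjected OIR. The median difference with PBS was -0.28, that of ISOX DUAL from PBS -0.20, and that of uninjected OIR from untreated retina -0.24.

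Rbpms, an RNA-binding protein found in ganglion cells, had 6.72 and 6.13 with ISOX DUAL and 6.62 and 7.06 with PBS, against 7.53 and 7.18 in uninjected OIR (difference -0.93 ± 0.23, adjusted p = 0.658). Slc17a6, the vesicular glutamate transporter of these cells, had 7.83 and 7.04 with ISOX DUAL and 7.52 and 8.51 with PBS, against 8.73 and 8.42 in uninjected OIR (difference -1.14 ± 0.37, adjusted p = 0.972). Nrn1, a neurite growth protein, had 7.38 and 6.87 with ISOX DUAL and 7.16 and 8.10 with PBS, against 8.41 and 7.99 in uninjected OIR (difference -1.07 ± 0.34). In all 3 genes the second ISOX DUAL array was the lowest of the day 17 arrays. The neurofilament gene Nefl (-1.02), the transcription factor gene Pou4f1 (-0.99) and the synuclein gene Sncg (-1.25), chosen after their values were seen, ran the same way. Sncg had 8.25 and 8.24 with ISOX DUAL against 10.30 and 8.70 in uninjected OIR, so its size rested on the first uninjected array.

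Genes of other neurons, pigment epithelium and red blood cells had medians nearer that of all genes than ganglion cell genes did. Of all genes, 15.4% were lower and 25.7% higher without overlap. Rod genes stood at a median of 0.088 over 19 genes, 0 lower and 7 higher without overlap, with Sag, the rod arrestin, at 12.01 and 12.17 against 11.92 and 11.72, the calcium sensor gene Guca1b at 0.34 and the rod transcription factor gene Nrl at 0.21. Cone genes had a median of -0.10 over 15 genes, 1 lower and 1 higher, counted in the same way here and below. Opn1mw, the middle-wave opsin, had 10.32 and 10.40 against 11.38 and 10.34 and the channel gene Cngb3 had 8.22 and 8.32 against 9.01 and 8.34, so the first uninjected array set both differences, and Pde6h differed by 0.28. Bipolar genes had a median of 0.037 over 18 genes, 1 lower and 5 higher, with Grik1 at 0.26, Cabp5 at 0.20 and Pcp2 at 7.74 and 7.90 against 9.08 and 7.75. Amacrine genes had a median of -0.10 over 19 genes, 6 lower and 2 higher. Calb2, calretinin, which ganglion cells also express, differed by -0.91 ± 0.34, with Tfap2a at -0.23 and Slc18a3 at -0.48. Horizontal cell genes had a median of -0.062 over 8 genes, 0 lower and 2 higher, with Tpm3 at -0.14, Prox1 at 0.17 and Slc4a3 at 0.24. Pigment epithelium genes had a median of -0.14 over 16 genes, 2 lower and 0 higher, with Bmp4 at -0.36, Pmel at -0.20 and Tyrp1 at -0.48. Of 4 red blood cell genes tested (median -0.029), 1 was lower and 0 higher, the lower one being the heme synthesis gene Alas2 at 6.02 and 6.13 against 6.38 and 6.86. Single arrays moved some of these medians. That of cone genes was -0.057 without the first ISOX DUAL array, 0.028 without the first uninjected OIR array and -0.26 without the second uninjected OIR array. The rod median was -0.0029 without the second uninjected OIR array, and the amacrine median -0.034 without the first uninjected OIR array and -0.057 without the second uninjected OIR array.

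**Figure D4:**
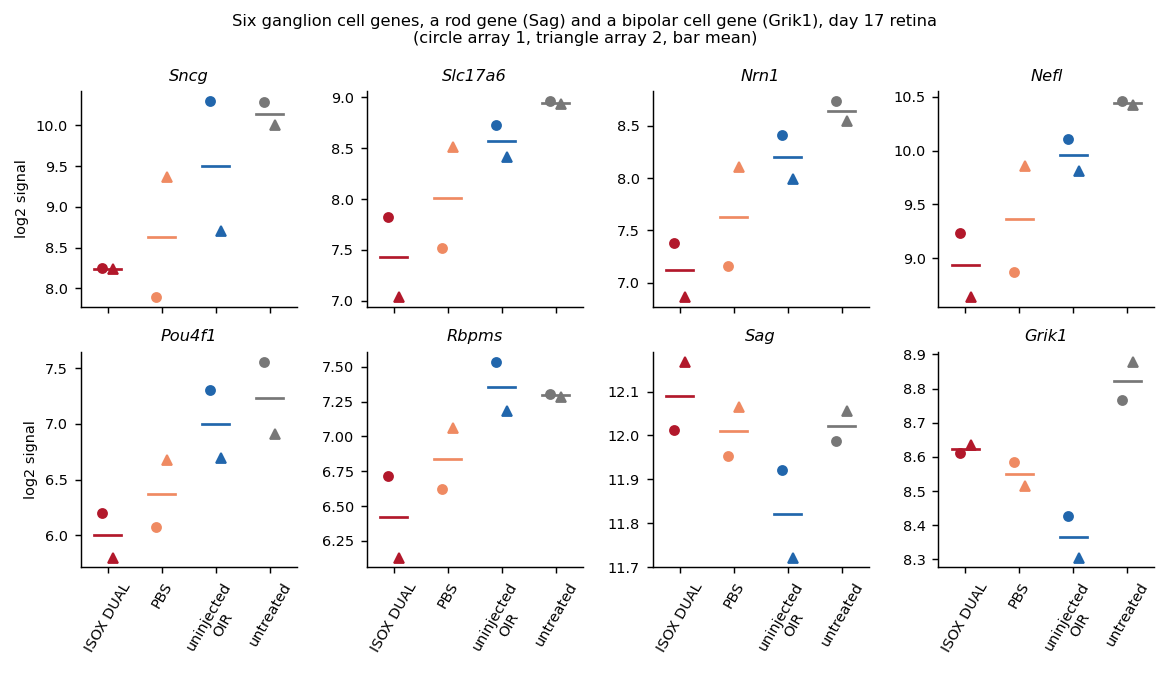
Log2 signal (vertical axes, each gene on its own scale) of 6 ganglion cell genes, the rod gene Sag and the bipolar cell gene Grik1 on each day 17 array, by group, with circles for array 1, triangles for array 2 and bars for means. The ISOX DUAL arrays lie below both uninjected OIR arrays for the ganglion cell genes, the PBS arrays are spread, and Sag and Grik1 lie above.

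The genes of the inhibitor's known targets showed no difference past the threshold. Crebbp, which encodes CBP, had 9.71 and 9.65 with ISOX DUAL against 9.91 and 9.72 in uninjected OIR (difference -0.14 ± 0.20). Ep300, which encodes p300, had 9.48 and 9.41 against 10.01 and 9.44 (difference -0.28 ± 0.35), and Brd2, a BET protein, had 8.41 and 8.35 against 8.06 and 8.30 (difference 0.20 ± 0.16). The first uninjected array was the highest of the 4 for Crebbp and Ep300. Of 8 tested genes known to respond to bromodomain inhibitors, 3 lay lower and 1 higher without overlap (15.4% and 25.7% of all genes). Their median was -0.22, or -0.093 without the second uninjected OIR array. The list of bromodomain genes itself stood at -0.067 over 4 genes, 1 lower and 1 higher. Myc, the growth regulator that BET inhibitors lower in many cell types, had 5.54 and 5.59 with ISOX DUAL and 5.54 and 5.52 with PBS, against 6.25 and 5.93 in uninjected OIR (difference -0.52 ± 0.12, adjusted p = 0.55), with all injected arrays below the negative control medians. Hexim1, which BET inhibitors raise in many cell types, had 7.76 and 7.91 with ISOX DUAL and 7.89 and 7.82 with PBS, against 7.50 and 7.92 in uninjected OIR (difference 0.13 ± 0.15, interval -0.22 to 0.48). Bcl2, an inhibitor of cell death, differed by -0.23 ± 0.086. For these 3 genes the PBS arrays lay close to the ISOX DUAL arrays.

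No gene passed as higher with ISOX DUAL (adjusted p 0.215 to 0.720 over the 12 of smallest p). Folh1, a peptidase that releases glutamate, had 7.11 and 6.87 with ISOX DUAL and 7.30 and 6.98 with PBS, against 6.14 and 5.42 in uninjected OIR (difference 1.21 ± 0.25) and 7.44 and 7.79 in untreated retina, so the injected arrays lay between both. Bsph1, a sperm-binding protein gene, had the smallest p of the 12, with 4.76 and 5.09 against 3.79 and 4.05, all below the negative control medians. Among well-detected genes with small differences were Utp20, of ribosome assembly (0.44 ± 0.09), the nuclear pore gene Nup155 (0.35 ± 0.089), Aktip (0.36 ± 0.084), the brain ubiquitin ligase gene Trim9 (0.36 ± 0.087) and Doc2b, a calcium sensor of vesicle release (0.47 ± 0.12). Their differences with PBS were 0.35, 0.34, 0.29, 0.31 and 0.41, in the same order. B3gnt5, a glycolipid-building enzyme, and Gje1, a connexin-like gene known from the lens, were below the negative control medians on all 4 arrays (0.38 and 0.66).

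Serpine3 and Adamts19 had PBS values nearer to uninjected OIR than to ISOX DUAL. Serpine3, a member of the serpin family, had 6.07 and 6.78 with ISOX DUAL and 4.92 and 5.49 with PBS, against 5.43 and 5.02 in uninjected OIR (difference 1.20 ± 0.29 with ISOX DUAL and -0.02 ± 0.29 with PBS). Its PBS and uninjected arrays lay below the negative control medians, so these sizes are not exact. Adamts19, a secreted metalloprotease, had 6.49 and 7.16 with ISOX DUAL and 6.05 and 6.35 with PBS, against 5.91 and 5.90 in uninjected OIR (differences 0.92 ± 0.22 and 0.29 ± 0.22). ISOX DUAL minus PBS was 1.22 ± 0.29 for Serpine3 and 0.63 ± 0.22 for Adamts19, with adjusted p of 1 and 1. In both genes the second ISOX DUAL array, which also had the highest lens signal, was the higher one. Between ISOX DUAL and PBS no gene of 23255 passed limma's threshold (0, with 237 or 1.02% at an unadjusted p below 0.05). Between PBS and uninjected OIR none passed either (0, with 997 or 4.29%), while uninjected OIR differed from untreated day 17 retina in 106 genes higher (0.456%) and 9 lower (0.0387%).

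The crystallins, the abundant structural proteins of the lens, some of which neurons and glia also make, held the largest positive differences. None of the 16 alpha, beta and gamma crystallin genes tested passed the threshold. Of the 16, 15 had both ISOX DUAL arrays above both uninjected OIR arrays, a pattern shown by 25.7% of all genes. The median difference of the 16 was 1.20 log2 against uninjected OIR, 0.93 against PBS, and 0.32 for PBS against uninjected OIR. The second ISOX DUAL array exceeded the first in all 16 genes, by 0.16 to 3.71 log2 (median 1.22). Without that array the median was 0.70 and 15 of 16 genes still lay above both uninjected arrays, with 36.8% of all genes doing so.

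Cryaa, the lens alpha crystallin, had 8.05 and 11.75 with ISOX DUAL and 7.30 and 8.34 with PBS, against 6.52 and 6.87 in uninjected OIR (difference 3.21 ± 1.00, adjusted p = 0.952). Cryba1 had 6.98 and 10.58 with ISOX DUAL and 6.22 and 6.76 with PBS, against 5.13 and 5.39 in uninjected OIR (difference 3.52 ± 0.96). Crygs had 5.32 and 8.45 with ISOX DUAL and 4.56 and 5.05 with PBS, against 4.29 and 4.42 in uninjected OIR (difference 2.53 ± 0.84). The arrays of 1 group lay further apart here than the groups of most genes do, and the standard errors are correspondingly large. Cryba1 and Crygs lay below the negative control medians in uninjected OIR, so the sizes are not exact. When the first ISOX DUAL array was left out, 7 crystallins passed as higher (Crybb1, Cryba1, Cryaa, Cryba4, Crygc, Crygf and Crygs), resting on the second array alone.

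Some gamma crystallins differed less between the ISOX DUAL arrays. Cryge had 6.64 and 6.80 with ISOX DUAL and 6.22 and 6.20 with PBS, against 5.82 and 6.00 in uninjected OIR (difference 0.81 ± 0.14, adjusted p = 0.291), Cryga had 7.29 and 7.93 with ISOX DUAL and 6.63 and 6.87 with PBS, against 6.28 and 6.41 (difference 1.27 ± 0.24), and Crygd had 6.53 and 7.16 with ISOX DUAL and 6.29 and 6.14 with PBS, against 5.76 and 5.98 (difference 0.97 ± 0.21). In Crygb the ISOX DUAL arrays lay further apart. It had 7.22 and 8.69 with ISOX DUAL and 6.50 and 6.51 with PBS, against 5.12 and 5.46 in uninjected OIR (difference 2.67 ± 0.45, adjusted p = 0.296). In these 4 genes the order was ISOX DUAL, PBS, uninjected on every array. The 6 genes Cryga to Crygf are close copies of each other, so signal may be shared between them. Crygc (1.43), Crygf (1.46), Crybb1 (1.74), Cryba2 (1.13), Cryba4 (1.10), Crybb2 (0.85), Crybb3 (0.64) and Crygn (0.37) were higher too. Crygb, Crygc, Cryba2, Cryba4, Crybb2 and Crygn lay below the negative control medians in uninjected OIR, so their sizes are not exact. The exception was Cryab, a small heat shock protein that the retina makes itself, with 7.47 and 7.89 with ISOX DUAL against 8.10 and 7.38 in uninjected OIR (difference -0.062 ± 0.27).

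The 100 bases before the start of the gamma crystallin genes, from RefSeq on GRCm38.p6 and along each gene's strand, are shown because these genes lay high together and their promoters are near copies. Capitals mark TATATA and CTTTTGTG, letters picked from these sequences and sought on both strands, TATATA also where copies of it overlap.
Cryga, chr1:65103364-65103463, minus strand: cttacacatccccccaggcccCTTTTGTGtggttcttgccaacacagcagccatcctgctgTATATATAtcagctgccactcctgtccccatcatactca
Crygb, chr1:65082291-65082390, minus strand: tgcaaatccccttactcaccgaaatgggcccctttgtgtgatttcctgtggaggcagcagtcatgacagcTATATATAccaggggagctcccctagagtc
Crygc, chr1:65073533-65073632, minus strand: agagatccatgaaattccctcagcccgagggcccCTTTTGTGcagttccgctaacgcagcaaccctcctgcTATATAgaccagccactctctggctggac
Crygd, chr1:65063441-65063540, minus strand: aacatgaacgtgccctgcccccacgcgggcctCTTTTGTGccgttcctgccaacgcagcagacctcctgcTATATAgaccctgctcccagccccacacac
Cryge, chr1:65051164-65051263, minus strand: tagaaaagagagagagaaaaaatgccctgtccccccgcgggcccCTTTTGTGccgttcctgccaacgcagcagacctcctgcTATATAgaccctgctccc
Crygf, chr1:65926422-65926521, plus strand: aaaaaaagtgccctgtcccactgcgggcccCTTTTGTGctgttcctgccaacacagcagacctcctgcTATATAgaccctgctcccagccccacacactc
TATATA stood in all 6, against 721 of 32851 promoters (2.19%), and CTTTTGTG in 5 of 6, against 151 (0.46%). Both stood in 5 of 6, against 7 of all promoters (0.0213%), and Crygb was the 1 without CTTTTGTG. The match describes the likeness of the promoters and says nothing of which factor acted.

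Other lens genes ran with the crystallins at lower signal. Of 13 tested, 1 was lower and 10 higher without overlap (15.4% and 25.7% of all genes). The median of the 13 was 0.20 (0.12 without the second ISOX DUAL array). Mip, the lens water channel, had 6.36 and 7.59 with ISOX DUAL and 6.15 and 6.37 with PBS, against 6.01 and 6.08 in uninjected OIR (difference 0.93 ± 0.33). Bfsp1, a filament protein of lens fibres, had 5.58 and 6.21 against 5.25 and 5.51, and Lgsn had 5.30 and 5.44 against 5.05 and 5.27. The second ISOX DUAL array was the highest in each. For Angpt2, Esm1 and Apln the second ISOX DUAL array was the lower one, and the part of lens signal in their values was not tested.

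**Figure D5:**
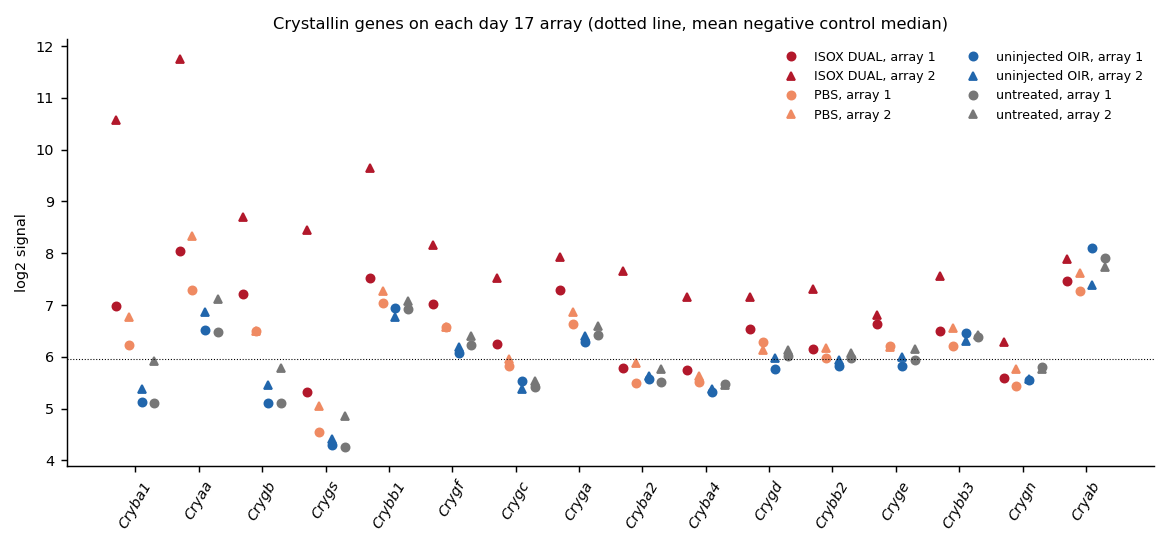
Log2 signal (vertical axis) of the 16 crystallin genes (horizontal axis, by decreasing difference) on each day 17 array, in the order ISOX DUAL, PBS, uninjected OIR and untreated for each gene, with circles for array 1 and triangles for array 2. The second ISOX DUAL array is the highest for 15 genes, reaching 11.75 for Cryaa, and the dotted line is the mean of the negative control medians.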

How the data were processed

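Whole-retina RNA of 10 samples was hybridised to Affymetrix whole-transcript arrays. Per the labels' protocols, total RNA was extracted with Trizol, fragmented and biotinylated. In the deposited series table each transcript cluster has a log2 value on each array (scale read from the values, 0.78 to 13.67, array medians 5.55 to 5.68). No software or normalization step of the authors is stated in the sources used here. The values were taken as deposited. Of 65956 clusters that are not controls, 30604 have 1 gene symbol in the probe annotation, 2146 several and 33206 none. Symbols were updated to RefSeq through the Entrez identifier (22818) or the symbol or a synonym (7784). For each gene the single-symbol cluster with the highest mean was kept, and tested if at least 2 arrays lay above their 30th percentile. Some list members are not reported here.

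The main model, in limma 3.58.1 (R 4.3.3), held all 10 arrays in 5 groups (5 residual and 2.76 prior degrees of freedom), with Benjamini-Hochberg adjustment over 23255 genes and a threshold of 0.05. The ± values are its standard errors. The steps were tested on simulated data. No fold is given where the lower group lay below the negative control median on both arrays. Named genes were those past the threshold, the 12 of smallest p in each direction without overlap (predicted, unnamed, microRNA, small nucleolar RNA, olfactory or vomeronasal receptor and crystallin genes left out), 3 members of smallest p of each of 32 lists, all crystallins, and a fixed set (Adm, Angpt2, Angpt1, Vegfa, Esm1, Apln, Edn2, Epo, Gfap, Tek, Egln3, Serpina3n, Ccn1, Hmox1, Brd2, Crebbp, Ep300, Myc and Hexim1, with Tie1 beside them). Members, lists and rule were chosen with earlier results of these data known. Aplnr, Flt1, Pdgfrb, Nefl, Pou4f1, Sncg, Xlr3b, Xlr3c, Txnip, Abca1, Optc and Crhbp were chosen after their values were seen. Pecam1, Cldn5, Cx3cr1, P2ry12, Aif1 and Gnat1 are cell type markers. The labels number the arrays of each group 1 and 2 without saying that a number pairs arrays. Same-numbered deviations correlated at -0.38 between ISOX DUAL and uninjected OIR and 0.40 between ISOX DUAL and PBS. The value was -0.41 between PBS and uninjected OIR. Uninjected OIR gave 0.59 with untreated day 17 and 0.81 with untreated day 7, and the untreated groups gave 0.58 with each other. Pairs of an injected and an untreated group gave -0.40 to -0.057. Whether injected and other arrays were handled apart was not tested.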

Additional observations from a re-analysis of the deposited data

Results flagged for a closer look

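Among transcript clusters with several gene symbols or none, which the comparison does not use, 1 of 24736 passed limma's adjusted threshold, with 680 at an unadjusted p under 0.05. It carries several symbols and is not named. Its signal was 6.86 and 6.51 log2 with ISOX DUAL and 6.93 and 6.69 with PBS, against 8.71 and 8.45 in uninjected OIR, and 7.03 and 6.94 in untreated day 17 retina. The difference was -1.90 ± 0.16 log2 (adjusted p = 0.0415). Both injected groups lay below uninjected OIR and below untreated retina. No group has enough arrays for a search for outlying arrays.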

How the results depend on the processing

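With 2 arrays per group, each count rests on single arrays. Against uninjected OIR, 1 gene was called with ISOX DUAL and also with quantile normalization, median centring, a mean-variance trend, a robust fit, no filter, a 50th percentile filter, every single-symbol cluster, the crystallins left out and, chosen after the data were seen, protein-coding genes alone. It was 3 with array weights (Angpt2, Spidr and Xlr3a) and 0 with only the 4 arrays compared, which leaves fewer samples. Leaving out 1 array gave 0 to 7: the 7, without the first ISOX DUAL array, were crystallins, and every other omission gave 0. With the replicate number as a replicate block the count was 1 for ISOX DUAL and 5 in place of 0 for PBS against uninjected OIR. With crossed numbers, chosen after the data were seen, it was 5 for ISOX DUAL and 4 for PBS, and PBS gave 2 over protein-coding genes. PBS gave 0 to 0 when 1 array was left out. ISOX DUAL against PBS gave 0 in all settings but 1, without the first ISOX DUAL array, so 0 to 1. Uninjected OIR against untreated day 17 gave 115, 134 with the replicate block, 12 with array weights, 0 with only its 4 arrays, 215 with crossed numbers and 0 to 84 without 1 array. The cause of these shifts was not tested. Angpt2 passed in 12 of 23 settings.

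Directions of named genes turned only when 1 array was left out, except that Tie1 (-0.0007) was at 0.0089 with median centring. Over the omissions of 1 array the range was -0.041 to 0.058 for Angpt1, -0.42 to 0.30 for Cryab, -0.57 to 0.0077 for Ep300, -0.39 to 0.11 for Gfap, -0.079 to 0.34 for Hexim1, -1.02 to 0.018 for Opn1mw, -1.26 to 0.075 for Pcp2, -0.82 to 0.12 for Serpina3n, -0.032 to 0.031 for Tie1 and -0.31 to 0.031 for Tpm3. For Angpt1, Cryab, Gfap and Serpina3n the sign turned without the first ISOX DUAL array, and for Cryab, Ep300, Hexim1, Opn1mw, Pcp2, Serpina3n, Tie1 and Tpm3 without the first uninjected array. For Angpt1 it turned without the second uninjected array and for Tie1 without the second ISOX DUAL array. List medians kept their sign in all settings for tip cell (-0.54 to -0.45), hypoxia target (-0.41 to -0.24), immediate-early (-0.40 to -0.28), ganglion cell (-0.57 to -0.31) and crystallin (0.70 to 1.92) genes. The signs of the microglia, complement, cytokine, oxidative stress, rod, cone, horizontal cell, pigment epithelium, bromodomain and red blood cell lists turned in at least 1.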

Other observations

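Some genes separated the injected arrays from the uninjected OIR arrays, and were chosen after their values were seen, apart from Xlr3a. Xlr3a, Xlr3b and Xlr3c are neighbouring X-linked genes, near-identical copies between which array signal may be shared. Xlr3b had 3.54 and 3.84 with ISOX DUAL and 3.93 and 4.09 with PBS, against 6.16 and 5.87 in uninjected OIR. It had 5.82 and 5.28 in untreated day 17 retina and 7.12 and 5.87 at day 7, where the arrays also differed in their sex markers. Xlr3c had 4.45 and 4.61 with ISOX DUAL and 4.69 and 4.67 with PBS, against 6.26 and 6.10 in uninjected OIR, and Xlr3a had 4.51 and 4.40 with ISOX DUAL and 4.58 and 4.66 with PBS, against 5.79 and 5.70 in uninjected OIR. All 4 injected arrays lay below all 6 others for each of the 3 genes. The injected arrays lay below the negative control medians, so the sizes are not exact (differences from uninjected OIR with ISOX DUAL -1.29 ± 0.17, -2.32 ± 0.37 and -1.65 ± 0.28 for Xlr3a, Xlr3b and Xlr3c, adjusted p 0.215, 0.268 and 0.296).

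Txnip, a glucose-sensitive inhibitor of thioredoxin, had 8.29 and 8.15 with ISOX DUAL and 8.30 and 8.10 with PBS, against 7.48 and 7.27 in uninjected OIR (difference 0.85 ± 0.22, adjusted p = 0.771). Abca1, the cholesterol exporter, had 9.07 and 9.02 with ISOX DUAL and 9.08 and 8.47 with PBS, against 8.09 and 8.13 in uninjected OIR (difference 0.94 ± 0.30, adjusted p = 0.96). Both lay above uninjected OIR on all 4 injected arrays.

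Optc and Crhbp lay lower on both ISOX DUAL arrays than on all PBS and uninjected OIR arrays. Optc, opticin, a protein of the vitreous made by the ciliary body, had 6.97 and 7.63 with ISOX DUAL and 8.17 and 8.63 with PBS, against 8.64 and 8.26 in uninjected OIR (difference -1.15 ± 0.26, adjusted p = 0.574). Crhbp, which binds corticotropin-releasing hormone, had 5.82 and 6.52 with ISOX DUAL and 6.90 and 7.44 with PBS, against 7.65 and 6.99 in uninjected OIR (difference -1.15 ± 0.31, adjusted p = 0.777). ISOX DUAL minus PBS had 95% intervals of -1.71 to -0.48 for Optc and -1.71 to -0.28 for Crhbp, with adjusted p of 1 and 1. The 3 iris and ciliary body markers Tyrp1, Pmel and Dct had means of 6.17 and 6.48 with ISOX DUAL and 6.54 and 6.64 with PBS, against 6.75 and 6.48 in uninjected OIR. These markers also stand in the pigment epithelium list and cannot tell these tissues apart. The part of such tissue in the values of Optc and Crhbp was not tested.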
